A study of Mus musculus with 8 samples.

Results

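Chemokines are small secreted proteins that bind G protein-coupled receptors on leukocytes and guide the cells that carry them. Here the transcripts of 10 mouse chemokine ligands that act on myeloid cells, are induced by interferon or belong to the homeostatic branch of the family were followed in the liver: Ccl2, Ccl3, Ccl6, Ccl9, Ccl24, Cxcl1, Cxcl9, Cxcl10, Cxcl12 and Cxcl13. The rule that picks them uses their symbols, it was written with earlier results of these data known, and they are 10 of the 56884 genes counted. All 10 were tested, and 2 of them, Ccl3 and Cxcl10, passed the minimum of 5 counts only through the DIO group.

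Liver RNA came from female C57BL/6J mice that had been put on a high-fat diet at 2 months of age and had become obese over 4 months. The diet supplied 45% of its energy as lipid, 20% as protein and 35% as carbohydrate. The DIO group (n = 3, replicates 1, 4 and 5) stayed on that diet until 18 months of age, and in the DIO + DHA group (n = 5, replicates 1, 2, 4, 5 and 6) a fish oil concentrate took the place of 15% (wt/wt) of the dietary lipids over the same time. The concentrate held 683.4 mg of DHA, 46.7 mg of EPA and 838.9 mg of n-3 fatty acids in total per g. Both groups were therefore old, obese and fed a high-fat diet, both diets carried tocopherols, and the mice were killed after an overnight fast. Each library was 1 mouse and all carried the same batch label. A lean or a young group was not analysed here.

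In the liver, chemokines are made by hepatocytes, Kupffer cells (the resident macrophages), sinusoidal endothelial cells, stellate cells and the leukocytes that enter from the blood. CC and CXC ligands differ in the spacing of their first conserved cysteines. Inflammatory members are switched on by cytokines and by microbial products, largely through NF-kappaB and interferon signalling, whereas homeostatic members are made steadily and place leukocytes within tissues. A ligand can use several receptors and a receptor can bind several ligands, so the results below are ordered by the cells that each ligand attracts.

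The genes lie in a few clusters. On chromosome 11 of GRCm39 are Ccl2 (ENSMUSG00000035385.6, chr11:81926397-81928279, plus strand), Ccl9 (ENSMUSG00000019122.9, chr11:83463745-83469462, minus strand), Ccl6 (ENSMUSG00000018927.4, chr11:83478708-83483913, minus strand) and Ccl3 (ENSMUSG00000000982.6, chr11:83538670-83540181, minus strand). Ccl9 and Ccl6 are neighbours, 9245 bases apart and on the same strand. On chromosome 5 are Cxcl1 (ENSMUSG00000029380.12, chr5:91039100-91040974, plus strand), Cxcl9 (ENSMUSG00000029417.10, chr5:92469206-92475938, minus strand), Cxcl10 (ENSMUSG00000034855.14, chr5:92494497-92496748, minus strand), Cxcl13 (ENSMUSG00000023078.7, chr5:96104810-96108927, plus strand) and Ccl24 (ENSMUSG00000004814.11, chr5:135598791-135601903, minus strand). Cxcl9 and Cxcl10 are separated by 18558 bases and share a strand. Cxcl12 (ENSMUSG00000061353.12, chr6:117145496-117158328, plus strand) stands apart on chromosome 6. All are protein-coding genes, and the counts were summed over their exons.

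The promoters of 5 of the genes whose transcripts differed between the diets are shown here as the 250 bases just upstream of the start, because they differ in the motifs they hold. The sequences are RefSeq's, on GRCm38.p6, written 5′ to 3′ along the gene, and capitals mark a match on either strand to any of 5 motifs: the TATA box (TATAAA), GAS (TTCNNNGAA, the interferon gamma activated site), the ISRE core (GAAANNGAAA, bound by interferon regulatory factors), the NF-kappaB motif (by name, a run of 10 bases) and AP-1 (TGANTCA). Cxcl1 lies at chr5:90890995-90891244 (plus), Cxcl10 at chr5:92348890-92349139 (minus), Cxcl9 at chr5:92328080-92328329 (minus), Ccl9 at chr11:83578637-83578886 (minus) and Ccl6 at chr11:83593088-83593337 (minus), with the strand given after each.
Cxcl1: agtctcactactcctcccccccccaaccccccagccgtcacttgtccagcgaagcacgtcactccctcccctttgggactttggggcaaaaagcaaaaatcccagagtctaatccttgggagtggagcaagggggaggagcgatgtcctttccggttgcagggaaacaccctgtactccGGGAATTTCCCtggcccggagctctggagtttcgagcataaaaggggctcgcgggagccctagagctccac
Cxcl10: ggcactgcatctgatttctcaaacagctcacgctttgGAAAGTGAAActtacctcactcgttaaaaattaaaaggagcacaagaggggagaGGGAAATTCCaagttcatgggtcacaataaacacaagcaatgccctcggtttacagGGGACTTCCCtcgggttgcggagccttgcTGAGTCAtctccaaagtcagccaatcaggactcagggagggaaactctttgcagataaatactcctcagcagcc
Cxcl9: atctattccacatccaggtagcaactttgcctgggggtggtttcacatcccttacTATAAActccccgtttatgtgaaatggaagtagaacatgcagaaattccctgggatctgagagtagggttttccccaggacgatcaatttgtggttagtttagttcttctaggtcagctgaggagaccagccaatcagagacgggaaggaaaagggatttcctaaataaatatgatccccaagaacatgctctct
Ccl9: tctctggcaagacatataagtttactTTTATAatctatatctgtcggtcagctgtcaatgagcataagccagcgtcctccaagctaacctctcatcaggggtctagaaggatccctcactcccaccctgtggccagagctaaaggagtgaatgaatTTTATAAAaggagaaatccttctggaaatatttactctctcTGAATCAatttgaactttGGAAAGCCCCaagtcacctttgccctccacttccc
Ccl6: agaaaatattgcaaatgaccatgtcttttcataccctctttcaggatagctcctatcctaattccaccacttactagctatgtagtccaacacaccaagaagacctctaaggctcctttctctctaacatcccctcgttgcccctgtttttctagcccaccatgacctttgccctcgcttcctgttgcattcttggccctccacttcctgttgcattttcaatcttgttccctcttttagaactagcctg

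The Cxcl1 window held an NF-kappaB motif read on both strands, as overlapping matches between bases 71 and 61 before the start. Cxcl10 held the richest set, with an ISRE core at bases 213 to 204, an NF-kappaB motif at bases 159 to 150, another at bases 103 to 94 and an AP-1 motif at bases 74 to 68. Ccl9 held an NF-kappaB motif on the opposite strand at bases 35 to 26, an AP-1 motif at bases 53 to 47 and TATAAA matches, some of which overlap. In Cxcl9 the single match was TATAAA, and in Ccl6 none of the 5 motifs matched. Of 32851 mouse promoter windows of this length, 12.4% held TATAAA, 7.02% GAS, 2.98% the ISRE core, 3.9% NF-kappaB and 6.75% AP-1. Windows were at hand for 8 of the 10 genes. Those of Ccl3 and Cxcl12 had no match, that of Cxcl13 had TATAAA at bases 46 to 41, and GAS was in none of the 8. A match is a run of letters and not a measured binding site, and a missing match says nothing about a factor that binds elsewhere.

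In the DIO + DHA group, 4 of the 10 transcripts were lower than in the DIO group, 2 were higher and 4 did not pass the test. Those lower were Cxcl9 and Cxcl10, which draw activated T and NK cells, Cxcl1, which draws neutrophils, and Ccl6, a ligand of macrophages and other myeloid cells. Those higher were Cxcl13, which places B cells in lymphoid follicles, and Ccl9, the neighbour of Ccl6. Calls were made with edgeR's quasi-likelihood test at a Benjamini-Hochberg adjusted p under 0.05 across the 12412 genes tested, of which 7.28% were called lower and 7.89% higher. Cxcl10 passed the count minimum only in the group where it was high, so its place among the 4 is given as a description, and leaving out Cxcl10 and Ccl3 leaves 3 of 8 lower and 2 higher. The CPM (counts scaled to a common library total, after TMM) of the groups did not overlap for the same 6 transcripts, against 8.88% of all tested genes without overlap and lower and 9.54% without overlap and higher. The median log2 fold change, DIO + DHA over DIO, was -0.71 over the 10 and 0.00 over all tested genes. That median takes in Ccl3 (-1.08) and Cxcl10 (-1.72), and the 6 without overlap take in Cxcl10. Both genes passed the count minimum only through the DIO group, so the median and the place of Cxcl10 among the 6 are descriptions. By the stricter rule of the study's methods, a limma-voom log-odds B above 0, 3 were lower (Ccl6, Cxcl1 and Cxcl9) and 1 was higher (Cxcl13), where 3.20% and 3.73% of all genes were.

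**Figure D1:**
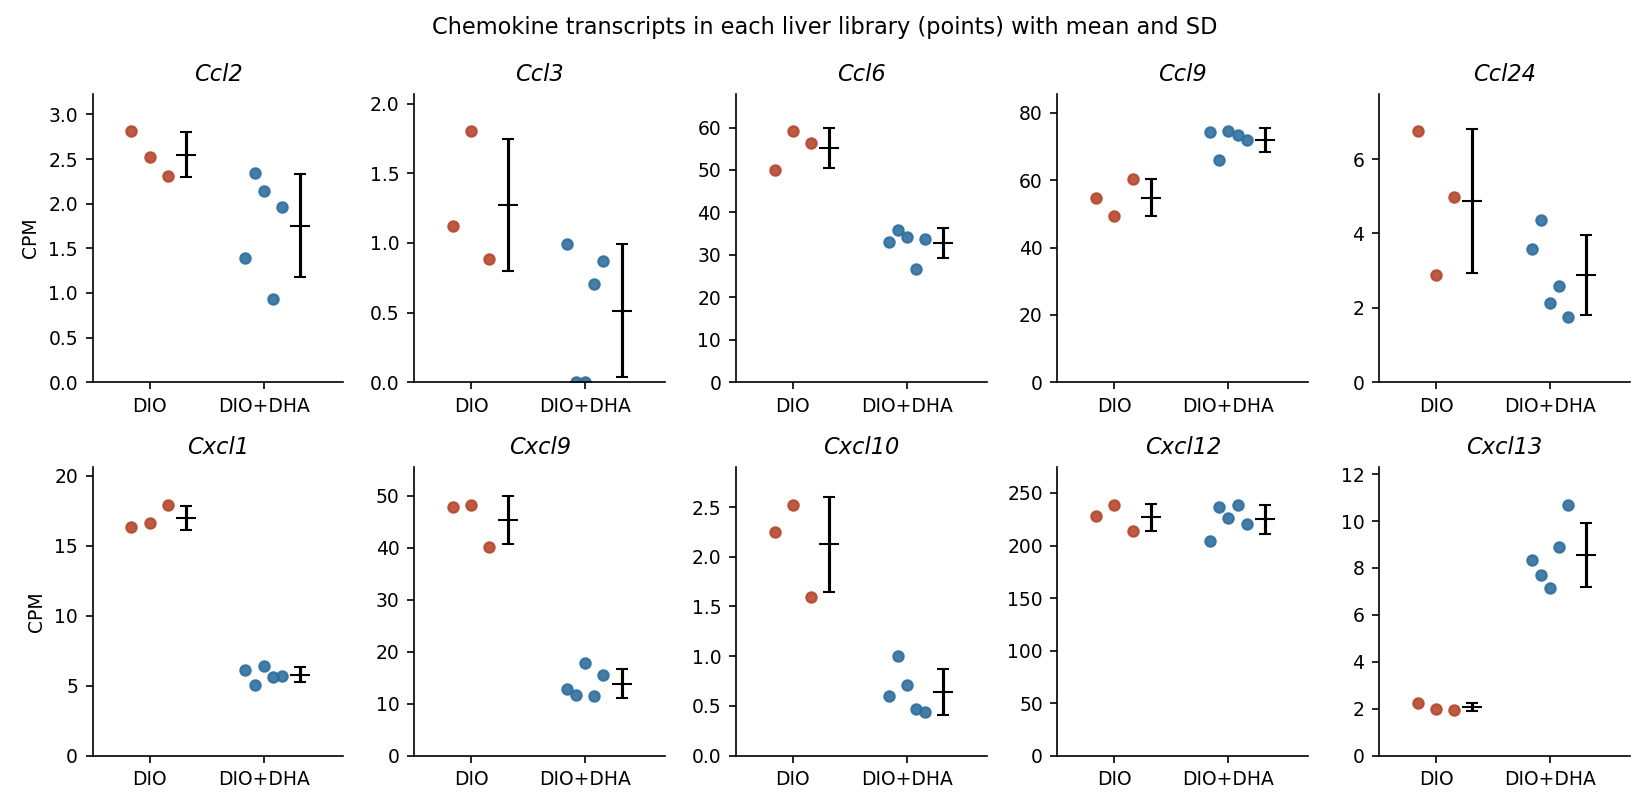
CPM of the 10 chemokine transcripts (y axis, from 0, with a scale for each gene) in the 3 DIO and 5 DIO + DHA libraries. Points are libraries, horizontal ticks the group means and vertical bars the SD. The groups are apart for Ccl6, Ccl9, Cxcl1, Cxcl9, Cxcl10 and Cxcl13 and overlap for the other 4.

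Libraries held 1723800 to 5690347 counts, with DIO replicate 1 the shallowest. Skeletal muscle transcripts set the groups apart as a whole: the 10 muscle markers summed to 31.9 to 37.1 CPM in the DIO libraries and 1253 to 1338 CPM in the DIO + DHA libraries, and all 10 were called higher, of which Myh4 and Atp2a1 passed the count minimum only there. The 8 markers of squamous epithelium summed to 0 to 0.361 CPM and 47.6 to 51.3 CPM, with Krt13, Krt5, Krt14, Lgals7, Krt6a and Dsg3 at 0 in every DIO library. Since every DIO + DHA library carried these transcripts, none could be set aside. The 8 hepatocyte markers summed to 96600 to 103500 CPM in the DIO group and 95220 to 107900 CPM in the DIO + DHA group, with 2 called lower and 2 higher. The part of this tissue signal in the chemokine results was not tested. Computing the scaling factors without the muscle and squamous genes left 4 of the chemokines lower and 2 higher.

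Among the interferon-induced ligands of the receptor Cxcr3, Cxcl9 was the more deeply counted. Its level was 47.8, 48.3 and 40.1 CPM in the DIO libraries and 12.9, 11.7, 17.8, 11.5 and 15.5 CPM in the DIO + DHA libraries. The lowest DIO library was more than 2 times the highest DIO + DHA library. The mean was 45.4 ± 4.61 CPM (SD, n = 3 mice) against 13.9 ± 2.72 CPM (SD, n = 5 mice), or 3.27-fold lower with DHA, a log2 fold change of -1.71 (SE 0.13, 95% interval -1.98 to -1.44, edgeR's quasi-likelihood test, Benjamini-Hochberg adjusted p = 8.2e-16). In bulk liver RNA, fewer cells that make a transcript and less of it in each cell cannot be told apart, here and in each result below.

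Cxcl10, whose promoter window carries the ISRE core shown above, was near the limit of detection. Its counts were 4, 14 and 9 in the DIO libraries, or 2.25, 2.52 and 1.6 CPM. In the DIO + DHA libraries they were 3, 3, 2, 2 and 2, or 0.595, 1.01, 0.714, 0.468 and 0.437 CPM. The groups did not overlap, although each DIO + DHA library rested on 3 counts or fewer. The log2 fold change was -1.72 (SE 0.53, 95% interval -2.83 to -0.71, edgeR adjusted p = 0.0135), nearly the value of Cxcl9 with an interval several times as wide. The call was lost without DIO replicate 4 (-1.49, adjusted p = 0.139) and under the Wald test of DESeq2 (adjusted p = 0.0766). Of the exon bases of Cxcl10, 5.91% also belong to Art3 on the opposite strand, and reads there were not counted.

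The proportion of Cxcl9 to Cxcl10 was compared within each library, which does not depend on the scaling. The mean log2 ratio of their counts was 4.34 ± 0.20 (SD, n = 3 mice) in the DIO group and 4.21 ± 0.54 (SD, n = 5 mice) in the DIO + DHA group, a difference of -0.13 (exact two-sided permutation test over 56 splits, n = 3 and 5, p = 0.786, adjusted p = 0.786 over the 3 pairs of ligands compared). The DIO + DHA libraries spread from 3.34 in replicate 2 to 4.84 in replicate 6, on both sides of the DIO values of 4.21 to 4.58. The remaining Cxcr3 ligand gene, Cxcl11, was looked at after its values were seen. It stood at 4.02 ± 1.40 CPM (SD, n = 3 mice) and 4.15 ± 0.715 CPM (SD, n = 5 mice), a log2 fold change of 0.20 with a 95% interval of -0.39 to 0.80 and overlapping groups. Of its exon bases, 41.7% are shared with Gm2673 on the opposite strand, and the difference between its change and that of Cxcl9 was not tested.

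T and NK cell transcripts moved in the same direction as Cxcl9. The 10 markers of these cells summed to 35.7 to 43.3 CPM in the DIO group and 15.0 to 19.4 CPM in the DIO + DHA group. Of the 6 tested, 3 were called lower (Cd3g, Cd8a and Nkg7) and none higher, against 7.28% and 7.89% of all tested genes. Prf1, on the same list, was not called, with a log2 fold change of 0.14 (SE 0.46, edgeR adjusted p = 0.896). Ncr1 had 0, 1 and 1 counts in the DIO libraries and 0 in every DIO + DHA library, too few to compare. Cd8a passed the count minimum only in the DIO group, where it was high, so its call is a description. Nkg7, a granule membrane protein of cytotoxic cells, fell by 1.63 on the log2 scale (SE 0.20, edgeR adjusted p = 1.7e-09). Their part in the fall of Cxcl9 and Cxcl10 was not tested. Cxcr3 itself had 0, 4 and 2 counts in the DIO libraries and 2, 0, 2, 2 and 3 in the others, below the minimum for a test.

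Cxcl1, a mouse ligand of the neutrophil receptor Cxcr2, was well separated between the diets. It measured 16.3, 16.6 and 17.9 CPM in the DIO libraries and 6.15, 5.03, 6.42, 5.62 and 5.68 CPM in the DIO + DHA libraries. The lowest DIO library was more than 2 times the highest DIO + DHA library. The mean was 16.9 ± 0.860 CPM (SD, n = 3 mice) against 5.78 ± 0.537 CPM (SD, n = 5 mice), 2.94-fold lower, with a log2 fold change of -1.56 (SE 0.18, 95% interval -1.93 to -1.19, edgeR adjusted p = 9.8e-10). The spread between replicates, 5.08% and 9.28% of the mean, was below the 13.5% and 21.6% that counting error alone would give on average at these counts, so the SD understates the error of Cxcl1.

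The transcripts of neutrophils themselves did not pass the test. Of 8 neutrophil markers, 3 could be tested and none was called, and their sum was 16.3 to 22 CPM in the DIO group and 15.9 to 22.9 CPM in the DIO + DHA group. Camp was at 0 in every DIO library and Ly6g in every DIO + DHA library. S100a8, an abundant calcium-binding protein of neutrophils, stood at 7.69 ± 0.531 CPM (SD, n = 3 mice) and 6.89 ± 0.993 CPM (SD, n = 5 mice). The receptor Cxcr2 had 0, 3 and 2 counts in the DIO libraries and 1, 0, 0, 0 and 3 in the DIO + DHA libraries.

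Ccl6 and Ccl9 both bind Ccr1 and lie side by side, and their transcripts moved in opposite directions. Ccl6 measured 50.1, 59.1 and 56.4 CPM in the DIO libraries and 33.1, 35.9, 34.3, 26.7 and 33.6 CPM in the DIO + DHA libraries. The groups were apart, and the lowest DIO + DHA library was replicate 5. The mean went from 55.2 ± 4.66 CPM (SD, n = 3 mice) to 32.7 ± 3.52 CPM (SD, n = 5 mice), a log2 fold change of -0.78 (SE 0.11, edgeR adjusted p = 5.0e-08).

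Ccl9 measured 54.6, 49.4 and 60.3 CPM in the DIO libraries and 74.4, 66.0, 74.6, 73.3 and 71.9 CPM in the DIO + DHA libraries. The gap was narrow, between 60.3 CPM in DIO replicate 5 and 66.0 CPM in DIO + DHA replicate 2. The mean went from 54.8 ± 5.47 CPM (SD, n = 3 mice) to 72.0 ± 3.53 CPM (SD, n = 5 mice), 1.32-fold higher, with a log2 fold change of 0.40 (SE 0.10, 95% interval 0.21 to 0.59, edgeR adjusted p = 0.00161). The call was lost without DIO replicate 4, the lowest library (0.31, adjusted p = 0.0655), and B was -0.39, under the limma-voom rule.

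Within each library the count of Ccl6 was 0.918, 1.20 and 0.935 times that of Ccl9 in the DIO group and 0.445, 0.543, 0.459, 0.364 and 0.468 times in the DIO + DHA group. These are proportions of reads and not of molecules per length. All 5 DIO + DHA libraries were below all 3 DIO libraries, and the mean log2 ratio went from 0.01 ± 0.21 (SD, n = 3 mice) to -1.14 ± 0.21 (SD, n = 5 mice), a difference of -1.15. The exact two-sided permutation test gave p = 0.0179 (n = 3 and 5), the smallest p that 56 splits can give. After adjustment over the 3 pairs, the p of that test was 0.0536, above the threshold. Given the p-values of the other pairs, this pair could not have passed at any size of difference, so no conclusion is drawn from the miss. The promoter windows above shared no motif match and had 2 runs of at least 12 bases in common, of 12 and 13 bases.

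**Figure D2:**
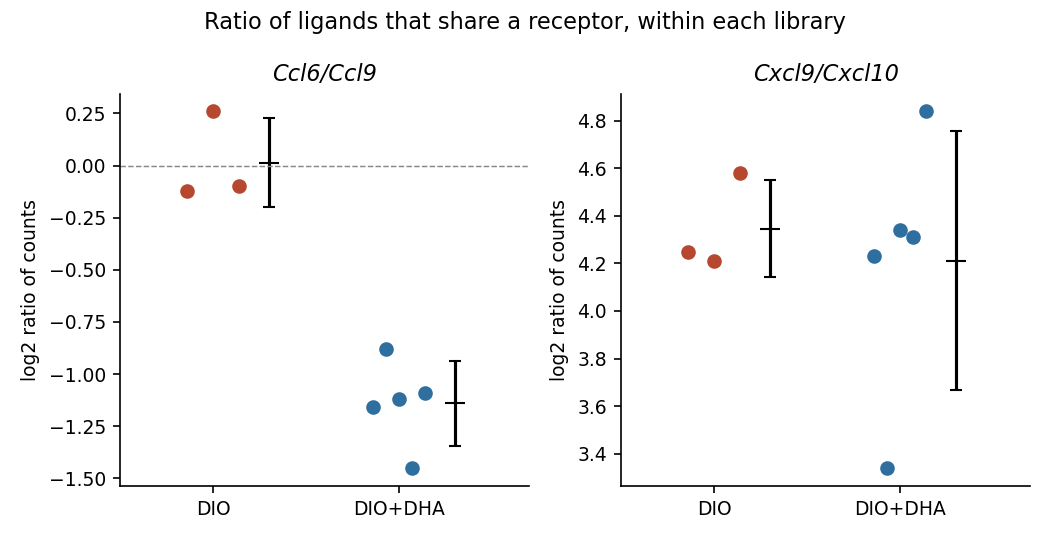
Log2 ratio of counts within each library (y axis) for the Ccr1 ligands Ccl6 and Ccl9 and for the Cxcr3 ligands Cxcl9 and Cxcl10, in 3 DIO and 5 DIO + DHA libraries. Points are libraries, ticks with bars the mean and SD, and the dashed line equal counts. The Ccl6 to Ccl9 ratio was lower in every DIO + DHA library, whereas the Cxcl9 to Cxcl10 ratios overlapped.

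Macrophage transcripts moved with Ccl6. Of 12 Kupffer cell markers, 11 were tested, 8 were lower (Clec4f, Vsig4, Cd5l, Adgre1, Csf1r, C1qa, C1qb and C1qc) and Marco, a scavenger receptor, was higher. Their sum was 708 to 794 CPM in the DIO group and 399 to 431 CPM in the DIO + DHA group. Over all tested genes, 7.28% were called lower and 7.89% higher. Folr2, not tested, was at 0 in every DIO library and had 0, 0, 1, 2 and 0 counts in the DIO + DHA libraries. Of its exon bases, 63.1% also belong to Gm10602 on the opposite strand, and reads there were not counted. The complement subunit C1qb fell by 1.03 on the log2 scale (SE 0.08, edgeR adjusted p = 3.6e-16), and Cd5l, a secreted protein of Kupffer cells, fell by 1.12 (SE 0.08, edgeR adjusted p = 2.3e-17). The part of these cells in the change of Ccl6 was not tested. Ccl9 went the other way from the summed Kupffer cell markers.

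Ccl2, the main attractant of Ccr2-bearing monocytes, was low in both groups. It measured 2.81, 2.52 and 2.31 CPM in the DIO libraries and 1.39, 2.35, 2.14, 0.937 and 1.97 CPM in the DIO + DHA libraries. DIO + DHA replicate 2 lay above DIO replicate 5, so the groups overlapped, and 32 and 33 counts in all stood behind them. The log2 fold change was -0.55 (SE 0.41, 95% interval -1.37 to 0.26, edgeR adjusted p = 0.429), an interval that holds both no change and a fall of more than 2-fold. The 7 monocyte markers summed to 15.4 to 21.9 CPM and 11.1 to 16.6 CPM, with 5 tested and none called. The Ccl2 receptor Ccr2 stood at 1.47 ± 0.701 CPM (SD, n = 3 mice) and 0.798 ± 0.742 CPM (SD, n = 5 mice), a log2 fold change of -0.61 (SE 0.62, edgeR adjusted p = 0.593). Ccr2 passed the count minimum only in the DIO group, with 4, 5 and 7 counts against 1, 4, 0, 3 and 8, so its fold change is a description.

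Ccl3, a ligand of Ccr1 made by activated macrophages and lymphocytes, was the sparsest. Its counts were 2, 10 and 5 in the DIO libraries, or 1.13, 1.80 and 0.887 CPM, and 5, 0, 0, 3 and 4 in the DIO + DHA libraries, or 0.992, 0, 0, 0.703 and 0.874 CPM. A count of 0 allows up to 1.01 CPM in DIO + DHA replicate 2 and 1.07 CPM in replicate 4, which reaches the lowest DIO library. The log2 fold change was -1.08 (SE 0.64, 95% interval -2.39 to 0.16, edgeR adjusted p = 0.278), so a difference was not detectable at this depth. Of its exon bases, 34.7% also belong to Gm53692 on the opposite strand, and reads there were not counted. The log2 ratio of Ccl3 to its neighbour Ccl4 was -1.90 ± 0.27 (SD, n = 3 mice) and -0.55 ± 2.01 (SD, n = 5 mice), a difference of 1.35 (exact two-sided permutation test, n = 3 and 5, p = 0.321, adjusted p = 0.482).

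Ccl24, an attractant of eosinophils through Ccr3 that is made by macrophages, measured 6.75, 2.89 and 4.97 CPM in the DIO libraries and 3.57, 4.36, 2.14, 2.58 and 1.75 CPM in the DIO + DHA libraries. DIO replicate 4 fell among the DIO + DHA libraries. The log2 fold change was -0.63 (SE 0.33, 95% interval -1.28 to 0.02, edgeR adjusted p = 0.217). Eosinophil transcripts were at the edge of detection, since none of 5 markers could be tested, Epx was at 0 in every library, and Siglecf and Ccr3 were at 0 in every DIO + DHA library.

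Of the homeostatic ligands, 1 was called and 1 was not. Cxcl12, which holds hematopoietic cells and lymphocytes in place through Cxcr4, measured 228, 239 and 214 CPM in the DIO libraries and 204, 236, 226, 238 and 220 CPM in the DIO + DHA libraries. The groups overlapped throughout, with means of 227 ± 12.7 CPM (SD, n = 3 mice) and 225 ± 13.9 CPM (SD, n = 5 mice). The log2 fold change was -0.01 (SE 0.07, edgeR adjusted p = 0.936) with a narrow 95% interval of -0.16 to 0.13. Among cells known to make Cxcl12, the 8 stellate cell markers summed to 465 to 510 CPM in the DIO group and 432 to 455 CPM in the DIO + DHA group, with 2 lower (Lrat and Colec11) and 1 higher, Des, which muscle also expresses. The 8 sinusoidal endothelial markers summed to 223 to 250 CPM and 170 to 196 CPM, with 2 lower (Clec4g and Lyve1). Over all tested genes, 7.28% were called lower and 7.89% higher.

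Cxcl13 had the largest fold change of the 10. Its counts were 4, 11 and 11 in the DIO libraries, or 2.25, 1.98 and 1.95 CPM, and 42, 23, 20, 38 and 49 in the DIO + DHA libraries, or 8.33, 7.71, 7.14, 8.90 and 10.7 CPM. The lowest DIO + DHA library was more than 3 times the highest DIO library. The mean went from 2.06 ± 0.164 CPM (SD, n = 3 mice) to 8.56 ± 1.37 CPM (SD, n = 5 mice), 4.27-fold higher, with a log2 fold change of 2.10 (SE 0.29, 95% interval 1.54 to 2.69, edgeR adjusted p = 4.4e-08). Leaving out any 1 library kept it between 2.00 and 2.14. The spread between the DIO replicates of Cxcl13, 7.95% of the mean, was below the 38.6% that counting error alone would give on average. The SD of the DIO group therefore understates the error.

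B cell transcripts were sparse, and none was called. Of 6 B cell markers only Cd79b, a subunit of the B cell receptor, was tested, at 2.75 ± 1.94 CPM (SD, n = 3 mice) and 2.82 ± 0.475 CPM (SD, n = 5 mice), a log2 fold change of -0.21 (SE 0.34, edgeR adjusted p = 0.769). The list summed to 1.69 to 6.21 CPM in the DIO group and 3.93 to 7.21 CPM in the DIO + DHA group, with Cr2 at 0 in every DIO library. Among those not tested, Ms4a1, the B cell surface protein CD20, had 0, 1 and 2 counts in the DIO libraries and 4, 2, 2, 5 and 6 in the DIO + DHA libraries, with every DIO + DHA library above every DIO library in CPM (0 to 0.355 and 0.670 to 1.31 CPM). Fcmr, a receptor of IgM, had 0, 4 and 3 counts and 6, 3, 1, 2 and 8, with overlap in CPM. Their part in the rise of Cxcl13 was not tested. Cxcr5, the receptor of Cxcl13, had 2, 1 and 1 counts in the DIO libraries and at most 1 in each DIO + DHA library. The 4 mesothelial markers, which are not of the liver parenchyma, summed to 0 to 1.44 CPM and 2.35 to 3.51 CPM, with Msln and Upk3b at 0 in every DIO library. Wt1, on the same list, went the other way, with 0, 4 and 1 counts in the DIO libraries and 1, 0, 0, 0 and 0 in the DIO + DHA libraries. Lrrn4 had 0, 4 and 3 counts against 4, 1, 2, 5 and 3, with overlap in CPM. The part of mesothelial, muscle or squamous tissue in the rise of Cxcl13 and Ccl9 was not tested.

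**Figure D3:**
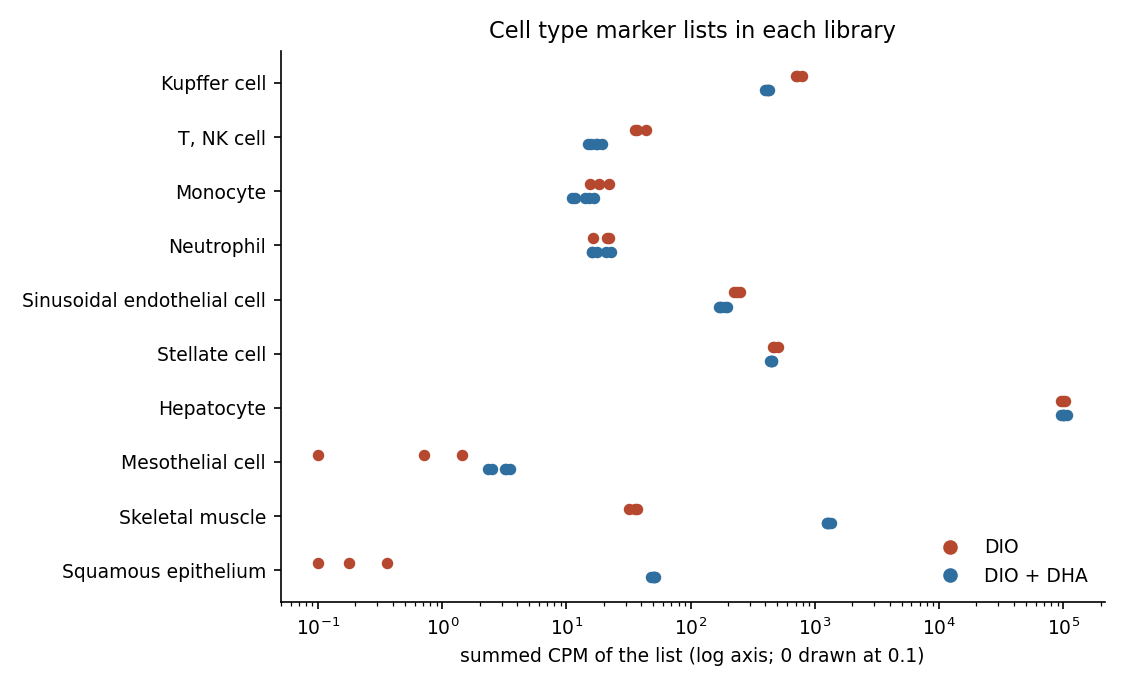
Summed CPM of each cell type marker list (x axis, log scale, sums of 0 drawn at 0.1) in the 3 DIO and 5 DIO + DHA libraries, 1 point per library. Kupffer cell, T and NK cell, sinusoidal endothelial and stellate cell sums were lower in every DIO + DHA library. Skeletal muscle, squamous and mesothelial sums were higher in every one, and neutrophil, monocyte and hepatocyte sums overlapped.

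Most receptors that the 10 ligands are known to use were below the count minimum. Ccr1 had 0, 4 and 6 counts against 2, 0, 0, 0 and 1, and Ccr3 had 0, 3 and 0 counts against none. Cxcr4 had 0, 1 and 0 counts against 0, 1, 1, 0 and 1, and Ackr3, the scavenging receptor of Cxcl12, 0, 0 and 1 against 3, 4, 0, 4 and 0. Differences in these receptors were not detectable at this depth.

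Of 23 chemokine receptor genes, 7 were tested, 2 were lower and none was higher, with a median log2 fold change of -0.18. Over all tested genes, 7.28% were lower and 7.89% higher. Some of the 7 passed the count minimum only in 1 of the groups, so the median is a description. Cx3cr1, a receptor of monocytes and macrophages, was lower, at 3.20 ± 0.872 CPM (SD, n = 3 mice) and 0.967 ± 0.470 CPM (SD, n = 5 mice), a log2 fold change of -1.79 (SE 0.42, edgeR adjusted p = 0.00106). Cx3cr1 passed the count minimum only in the DIO group, where it was high, so its call is a description and its counts were 4, 22 and 19 against 5, 5, 1, 4 and 4. The atypical receptors that bind chemokines without signalling through G proteins were not called. Ackr2 was at 0.479 ± 0.552 CPM (SD, n = 3 mice) and 1.66 ± 0.582 CPM (SD, n = 5 mice), with a log2 fold change of 1.41 (SE 0.60, edgeR adjusted p = 0.0958) and no overlap. It passed the count minimum only in the DIO + DHA group, and without DIO replicate 4 it was called higher (2.51, edgeR adjusted p = 0.0437). Ackr1 was at 2.00 ± 0.228 CPM (SD, n = 3 mice) and 2.13 ± 0.452 CPM (SD, n = 5 mice).

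Of 28 other chemokine ligands, 12 were tested, 3 were lower and 1 was higher, with a median log2 fold change of -0.32. Over all tested genes, 7.28% were lower and 7.89% higher. Some of the 12 passed the count minimum only in 1 of the groups, so the median is a description. Ccl5, made by T and NK cells, measured 105, 111 and 93.7 CPM in the DIO libraries and 34.5, 31.8, 35.3, 32.3 and 31.0 CPM in the DIO + DHA libraries, a log2 fold change of -1.64 (SE 0.09, edgeR adjusted p = 2.6e-21). Ccl4, the neighbour of Ccl3, went from 5.17 ± 1.56 CPM (SD, n = 3 mice) to 0.663 ± 0.356 CPM (SD, n = 5 mice), a log2 fold change of -2.95 (SE 0.44, edgeR adjusted p = 2.2e-07). Ccl4 had 4 counts or fewer in each DIO + DHA library and passed the count minimum only in the DIO group, where it was high, so its call is a description. Cxcl16, a membrane-bound ligand of Cxcr6, fell by 0.81 on the log2 scale (SE 0.18, edgeR adjusted p = 0.00049), with overlapping groups and 18.3% of its exon bases shared with Zmynd15. The call of Cxcl16 was lost without DIO replicate 5 (-0.56, edgeR adjusted p = 0.0762). Ccl21a, a lymphatic ligand of Ccr7, was higher at 1.67 ± 0.674 CPM (SD, n = 5 mice) against 0.118 ± 0.205 CPM (SD, n = 3 mice), and is uncertain because the mouse genome holds near-identical copies of it. It too passed the count minimum only in the group where it was high, with 0, 0 and 2 counts in the DIO libraries.

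**Figure D4:**
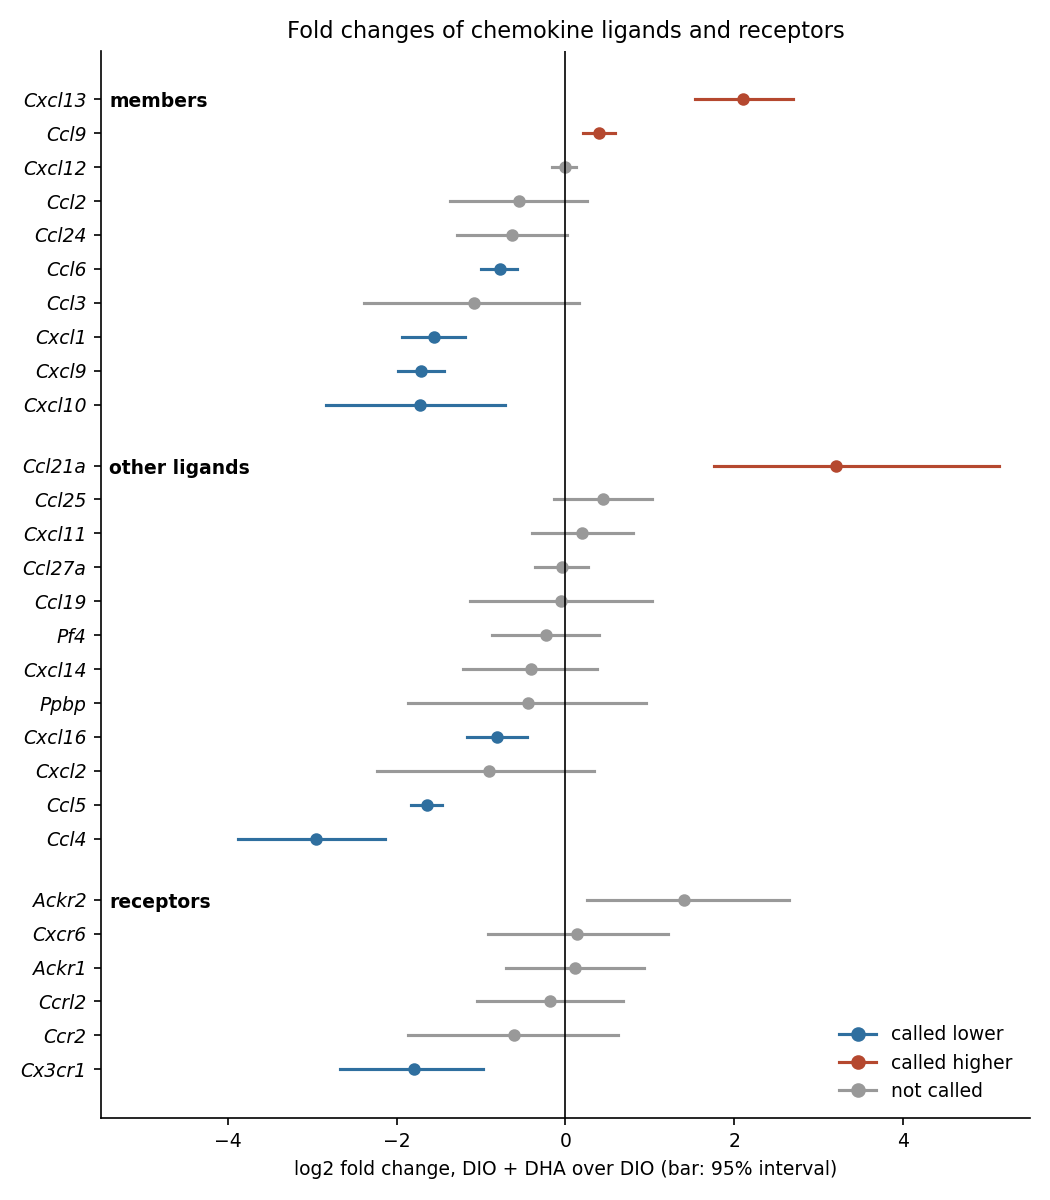
Log2 fold change, DIO + DHA over DIO (x axis), of the 10 chemokines, 12 other ligands and 6 of the 7 receptors tested, with 95% intervals from edgeR's quasi-likelihood fit of 3 DIO and 5 DIO + DHA libraries. Blue and red mark calls lower and higher at an adjusted p under 0.05, and gray marks no call. Among the 10, Cxcl9, Cxcl10, Cxcl1 and Ccl6 lie left of 0 and Cxcl13 and Ccl9 right of it.

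Receptors, kinases and factors that act on chemokine genes were lower where they were called. Of 38 such genes, 34 were tested, 11 were lower and none was higher, with a median log2 fold change of -0.25. Over all tested genes, 7.28% were lower and 7.89% higher. Some of the 34 passed the count minimum only in the DIO group, so the median is a description. Il1r1, the receptor of interleukin 1, had the largest fall, from 29.5 ± 5.38 CPM (SD, n = 3 mice) to 11.8 ± 2.13 CPM (SD, n = 5 mice), a log2 fold change of -1.24 (SE 0.15, edgeR adjusted p = 3.3e-09). Tlr2, a receptor of bacterial lipoproteins, fell by 0.95 (SE 0.27), and Myd88, the adaptor below it, by 0.53 (SE 0.14). Tnfrsf1a, a receptor of TNF, fell by 0.35 (SE 0.10), Ltbr, the lymphotoxin beta receptor, by 0.36 (SE 0.10), Nfkbia, the inhibitor of NF-kappaB, by 0.31 (SE 0.09), and Irf1, an interferon-induced factor, by 0.41 (SE 0.13), all on the log2 scale. Groups overlapped for Myd88, Ltbr and Nfkbia. By edgeR, the calls of Myd88, Ltbr, Nfkbia and Irf1 were lost without DIO replicate 4 (adjusted p = 0.0608 to 0.139) and those of Tlr2, Ltbr and Irf1 without DIO replicate 5 (adjusted p = 0.0617 to 0.0737). That of Nfkbia was also lost without DIO replicate 1 (adjusted p = 0.052). Ifng, Tnf, Tlr4 and Ltb were below the count minimum, and Ifng had 1 count in each of DIO replicates 4 and 5 and none elsewhere. The count of 11 came to 6 under the Wald test of DESeq2 and 5 without DIO replicate 4 or without DIO replicate 5.

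Of 34 genes that act below chemokine receptors, 32 were tested, 11 were lower and none was higher, with a median log2 fold change of -0.48. Over all tested genes, 7.28% were lower and 7.89% higher. Some of the 32 passed the count minimum only in the DIO group, so the median is a description. Ncf1, a subunit of the phagocyte NADPH oxidase, went from 7.76 ± 1.41 CPM (SD, n = 3 mice) to 3.54 ± 1.14 CPM (SD, n = 5 mice), a log2 fold change of -1.14 (SE 0.27, edgeR adjusted p = 0.00106). Rgs1, a brake on G protein signalling in leukocytes, fell by 2.32 on the log2 scale (SE 0.68), from 2.20 ± 1.02 CPM (SD, n = 3 mice) to 0.312 ± 0.481 CPM (SD, n = 5 mice). It passed the count minimum only in the DIO group, where it was high, and its call is a description. Others that were lower are known from leukocytes, among them the GTPase Rac2 (fell by 0.61, SE 0.16), the G protein regulator Rgs2 (fell by 0.62, SE 0.15) and the integrin subunit Itgb2 (fell by 0.94, SE 0.27). The G protein subunit Gnai2, expressed in most cells, fell by 0.25 (SE 0.07) and the receptor adaptor Arrb2 by 0.76 (SE 0.19). By edgeR, the calls of Rgs2 and Gnai2 were lost without DIO replicate 4 (adjusted p = 0.0731 and 0.0777) and those of Rac2, Arrb2 and Itgb2 without DIO replicate 5 (adjusted p = 0.107, 0.0898 and 0.318). The log2 fold change of Itgb2 was then -0.59, and its call was also lost under DESeq2 (adjusted p = 0.0735).

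The genes whose profile over the 8 libraries was most like that of each called chemokine were found among 8228 genes that averaged 5 CPM or more, by the root mean square difference of centred log2 CPM. Nearest to Cxcl9 were Ccl5 (0.177), Steap4 (0.186) and Nkg7 (0.19). Nearest to Cxcl1 were Upp2 (0.094), a uridine phosphorylase of liver, H2-Aa (0.108), an MHC class II chain, and Serpina12 (0.111). Nearest to Ccl6 were the long non-coding RNA 9030619P08Rik (0.097), Psmb10 (0.104), an immunoproteasome subunit, and Cyp2c50 (0.111). Nearest to Cxcl13 were Sult3a1 (0.16), A1bg (0.161) and Tubb2a (0.187), to Ccl9 Enho (0.044), Pdlim1 (0.051) and AU022252 (0.055), and to Cxcl10 Plk3 (0.159), Extl1 (0.188) and AB124611 (0.205). The likeness rests mainly on the difference between the diets, which all of these genes share in sign.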

How the data were processed

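Liver RNA was sequenced from 3 DIO and 5 DIO + DHA mice, grouped by their labels. The authors made 3′-enriched libraries with molecular identifiers, trimmed the reads, aligned them with STAR 2.7.9a to GRCm39 and counted them over GENCODE mouse exons with featureCounts 1.6.0. What they deposited are raw counts, 1 whole number per gene and library, not normalized. The deposited counts were used as they are. The counting commands set no strand, multi-mapping or overlap option. Whether molecular identifiers were collapsed is not given in the sources used here, so floors (3 counts) cover counting error only.

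Names came from GENCODE release M39, which held 56323 of the 56884 identifiers. Following the study's methods, genes with fewer than 5 counts in over 50% of both groups' libraries were left out, and 12412 stayed. Counts were scaled by TMM and tested with edgeR 4.0.16 (quasi-likelihood, robust, Benjamini-Hochberg) in R 4.3.3. The study's own test, limma-voom (limma 3.58.1) with B above 0 at a prior proportion of 0.01, and DESeq2 1.42.0 were alternatives, as were scalings, filters, a replicate block and leaving out each library. Ratios within libraries used 0.5 counts as a pseudocount. Methods were tested on simulated data. Totals of 1723800 to 5690347 counts (median 4495644) limit low genes.

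The 10 chemokines and all gene lists were chosen with earlier results of these data known. Beside the 10, named genes are the receptors of the 10, up to 8 called genes of each list with the smallest p-values, the 3 most alike profiles, and markers beside a result. Replicates are separate mice. A few genes of the lists enter the counts but are not reported here by name.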

Additional observations from a re-analysis of the deposited data

Results flagged for a closer look

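Of 52 groups of 5 libraries examined, 2 had a library set apart from the other 4 by Dixon's criterion, and chance alone sets apart about 1 in 20. Cxcl16, the membrane-bound ligand of Cxcr6, stood at 15.22 CPM in DIO + DHA replicate 5, where the other DIO + DHA libraries ranged from 8.71 to 10.1 CPM, and this library lay above the lowest DIO library. Irf1, an interferon-induced transcription factor, stood at 24.97 CPM in DIO + DHA replicate 4, where the others ranged from 20.1 to 21.5 CPM, and every DIO library was higher still. None of the 10 chemokines was set apart in this way in the DIO + DHA group, and the DIO group of 3 was too small for the criterion.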

How the results depend on the processing

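Of 80 values of the 10 chemokines with 1 library left out, 76 kept direction and call, 2 lost the call (Ccl9 and Cxcl10, both without DIO replicate 4) and 2 changed sign (Cxcl12, 0.03 without DIO replicate 4 and 0.02 without DIO + DHA replicate 1, in a range of -0.06 to 0.03). Of 93 values under other settings, 89 kept both and 4 lost the call. These were Cxcl10 under DESeq2, under the block and by B above 0, and Ccl9 by B above 0. The calls numbered 3 to 4 lower and 1 to 2 higher over all settings, with 1 higher by B above 0, with at least 10 counts in every library and without DIO replicate 4. For the other named genes, 182 of 200 values with 1 library left out and 214 of 235 under other settings kept direction and call, and none changed sign. Ackr2 was called only without DIO replicate 4.

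With at least 10 counts in every library, a rule that tests fewer genes, 2 other ligands and 0 receptors were called, and leaving out 1 library gave 3 to 4 and 1 to 3. By B above 0, 1 receptor and 2 regulators were called. Regulators numbered 6 under DESeq2 and 5 to 10 with 1 library left out. Over all genes, B above 0 called 860 (397 lower, 463 higher) and DESeq2 601 lower. With no pseudocount only 2 pairs could be compared. The lower adjusted p of 0.0357 for Ccl6 to Ccl9 there (exact permutation test) came from adjusting over fewer pairs. The difference in the Ccl6 to Ccl9 ratio was -1.16 in that setting and -1.22 to -1.03 with 1 library left out. That of Cxcl9 to Cxcl10 turned to 0.04 with no pseudocount and ranged from -0.29 to 0.08, above 0 without DIO + DHA replicate 2. That of Ccl3 to Ccl4 ranged from 0.74 to 1.91. Beyond the settings' own construction, the cause of these shifts was not tested.

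Replicate numbers 1, 4 and 5 occur in both groups, but same-numbered libraries did not deviate together (correlations from -0.0135 to -0.0111), so the numbers were not taken as pairs. With the number as a block, 6 regulators were called, and Cxcl10 had an adjusted p of 0.0722 by edgeR. Depth limits Ccl2, Ccl3, Ccl24, Cxcl10 and the receptors, which rest on a few counts per library.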
